A study of Mus musculus with 32 samples.

Results

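The nuclear genes for subunits of respiratory chain complexes III and IV and of the ATP synthase (complex V) were followed in tibialis anterior (TA) muscle of *Mtm1* KO mice and WT littermates. They were chosen by symbol, as genes whose symbol begins with Uqcr, Cox4i, Cox5, Cox6, Cox7, Cox8 or Atp5, together with *Cyc1*. The choice was made with earlier results of these data known. Of the 54838 genes in the count table, 53 matched. Symbols ending in -ps, which mark pseudogenes, removed 7 of these, and 4 more (a second gene with the symbol *Atp5o*, *Cox6c2*, *Cox7b2* and *Cox8c*) did not reach 10 counts in at least 4 libraries. The remaining 42 genes comprised 9 of complex III, 16 of complex IV and 17 of complex V, and every one of them had at least 10 counts in all 32 libraries. The choice by symbol also takes in *Cox7a2l*, a factor for the assembly of supercomplexes, and *Atp5s*, known as coupling factor B, which are not structural subunits in the strict sense.

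The samples were poly(A) RNA from 4 mice of either genotype at postnatal day (P)1, P14, P21 and P35, all on the C57BL6/J background and with no further treatment named. KO males (*Mtm1* -/y) carried the *Mtm1* KO allele of the line in every tissue, so that muscle and non-muscle cells of the TA share the loss of MTM1, a phosphatase of phosphoinositide lipids whose absence causes X-linked myotubular myopathy. The question of the comparison was which transcripts part between the genotypes as the mice pass from before symptoms (P14) to onset (P21) and to the end stage (P35). Complex III passes electrons from ubiquinol to cytochrome c, complex IV passes them on to oxygen, and complex V uses the resulting proton gradient to make ATP. Each complex joins subunits encoded in the nucleus with a few encoded in mitochondrial DNA. Several nuclear subunits of complex IV exist as a ubiquitous isoform and a heart and muscle isoform, and in skeletal muscle the second replaces the first around birth and the weeks after it.

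Libraries held 49321035 to 85631408 counts. *Mtm1* itself was at 18.9 to 24.9 CPM (counts scaled by library size, with TMM factors over all 32 libraries) in WT from P14 to P35 and at 2.64 to 4.51 CPM in KO, and at P1 at 5.26 to 6.02 and 2.32 to 3.91 CPM. Its adjusted *P*-value was 5.27e-06 or lower at P14 and P35, 8.13e-06 at P21 and 0.0668 at P1 (edgeR). Markers of myofibres (*Acta1*, *Ckm*, *Myh1*, *Myh4*, *Tnnt3*, *Pvalb* and *Mb*) summed to 108497 to 179323 CPM in all P14 and P21 libraries, so the labelled tissue carried its defining markers. At P1 they summed to 14605 to 29633 CPM, and 8 keratinocyte markers summed to 1629 to 6187 CPM there but to 7.90 to 45.8 CPM at later ages. In WT at P35, replicate 1 stood apart from the other 3 libraries, with lower levels of most of the 42 genes, and at P14 replicate 4 stood high in both genotypes. At P1, KO replicate 4 held 5.199% of its counts in mitochondrially encoded genes, against 3.21% to 3.35% in the other KO libraries. In bulk RNA, fewer cells of a type and less RNA per cell cannot be told apart.

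At P1 and P14 no member of the set passed the test between the genotypes. With a call at an adjusted *P*-value under 0.05 (edgeR, adjusted over all genes tested), 0 of 42 were called at P1, where 0.243% of all 18100 genes were, and 0 of 42 at P14, where 0.0954% were. None had an unadjusted *P*-value under 0.05 at either age, and DESeq2 also called 0 at both (2.22% and 0.966% of all genes). The median log2 fold change, KO over WT, of the 42 genes was -0.06 at P1 and 0.00 at P14, beside 0.01 and 0.00 over all genes tested, and single genes ranged from -0.22 to 0.22 and from -0.15 to 0.29. Leaving out 1 library moved the median to between -0.16 and -0.01 at P1 (-0.05 without KO replicate 4) and to between -0.12 and 0.09 at P14. At P14, same-numbered WT and KO mice deviated together, and in a fit blocked by replicate number *Cox8a*, the ubiquitous isoform of a small complex IV subunit, was called as higher in KO (58.3, 57.4, 51.2 and 42.2 CPM across the WT libraries, against 75.3, 66.97, 59.9 and 53.9 CPM across the KO libraries). Its log2 fold change was 0.29 with an adjusted *P*-value of 0.742 without the block and 0.00579 with it, and with the block 5.61% of all genes were called.

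At P21, at symptom onset, 16 of the 42 genes fell and none rose, when 9.57% of all genes tested were called lower and 11.4% higher. In comparisons of the genotypes, fell and rose mean lower and higher in KO than in WT of the same age. The fallen genes were 4 of 9 in complex III (*Uqcrc1*, *Uqcrc2*, *Cyc1* and *Uqcrfs1*), 4 of 16 in complex IV (*Cox5a*, *Cox7b*, *Cox6a2* and *Cox5b*) and 8 of 17 in complex V (*Atp5a1*, *Atp5g1*, *Atp5b*, *Atp5j*, *Atp5g3*, *Atp5s*, *Atp5c1* and *Atp5f1*). Their log2 fold changes ran from -0.51 to -0.26, so none reached the 1.5-fold limit of a DEG (adjusted *P*-value under 0.01 and more than 1.5-fold), which 1.5% of all genes passed downward. The median of the 42 was -0.20, beside 0.01 over all genes. DESeq2 called 26, all lower, beside 24.9% of all genes in either direction. With libraries scaled by their totals alone, the median of all genes moved to 0.20, that of the 42 to -0.02, and 8 members were called lower (3.85% of all genes) and 1 higher (31.2%).

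At P35, at the end stage, 26 of the 42 genes were lower in KO than in WT and 1 was higher, while 20.1% of all genes were called lower and 21.4% higher. Of these, 11 were DEGs, all lower, beside 7.52% of all genes (*Uqcrc1*, *Uqcrfs1*, *Uqcrc2*, *Cyc1*, *Cox7a1*, *Cox5a*, *Cox6a2*, *Atp5g1*, *Atp5a1*, *Atp5b* and *Atp5c1*). The median was -0.40, beside 0.04 over all genes. Scaling by library totals moved the median of all genes at P35 to 0.44. On that scale 9 members were called lower (5.92% of all genes) and 8 higher (54.3%), the median of the 42 was -0.01, and 4 of the called members turned sign (*Uqcrq*, *Uqcr10*, *Cox6b1* and *Atp5e*). The median of the 42 minus that of all genes was -0.44 under TMM and -0.44 under library totals, and folds given here are to be read relative to all genes. Without WT replicate 1, which stands apart, 30 members were called, all lower, with a median of -0.46.

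**Figure D1:**
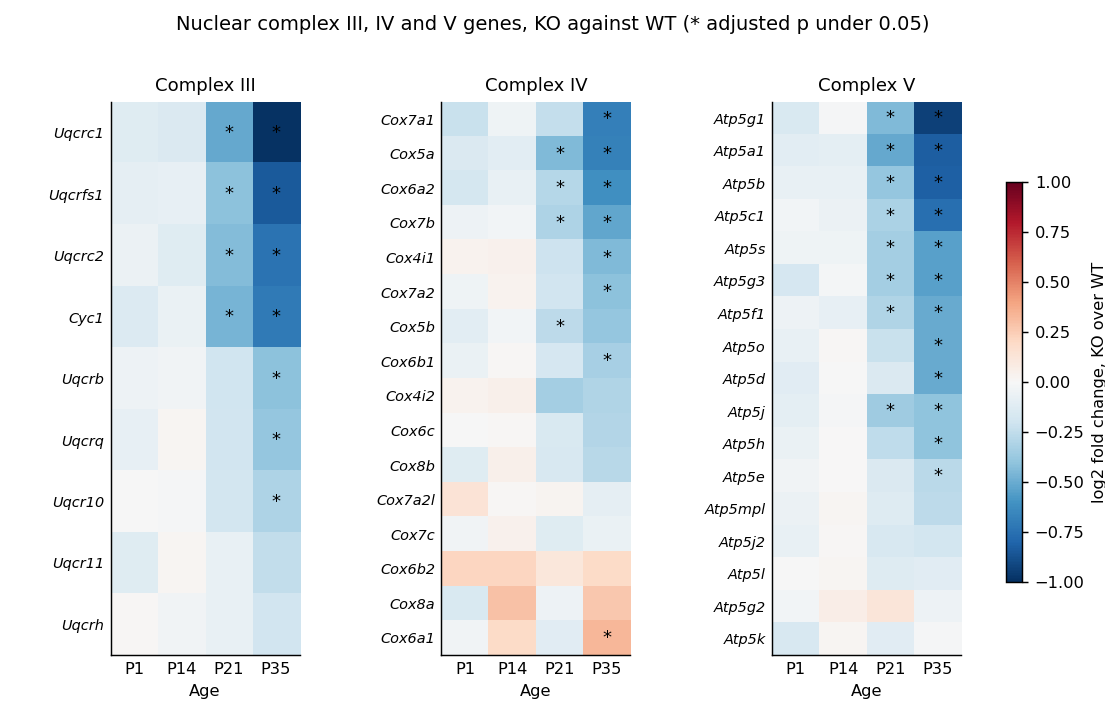
Log2 fold change of KO over WT (colour, blue for lower in KO) for each of the 42 genes (rows, by complex and ordered by P35) at the 4 ages (columns), from 4 libraries per genotype with TMM scaling. An asterisk marks an adjusted *P*-value under 0.05. P1 and P14 hold 0 asterisks, P21 holds 16 and P35 holds 27, of which *Cox6a1* alone is higher in KO. Scaling by library totals gives 9 lower and 8 higher calls at P35 (5.92% and 54.3% of all genes).

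In complex III, 7 of 9 genes fell at P35, with a median of -0.41. The 2 electron-carrying subunits and the 2 core proteins fell furthest. They were also the 4 called lower under library totals (5.92% of all genes), where the other 5 genes ran from -0.01 to 0.21. *Uqcrc1* (Gene ID ENSMUSG00000025651, GRCm38 chromosome 9, 108936633 to 108949623, plus strand) encodes core protein 1, which holds the complex together on its matrix side. At P35 its levels were 1011, 1211, 1358 and 1281 CPM across the WT libraries, against 618, 548, 568 and 676 CPM across the KO libraries. Each KO library lay below each WT library, with a gap between the nearest of them (WT replicate 1 and KO replicate 4). The change was the lowest of the set (log2 fold change -0.99, SE 0.115, adjusted *P*-value 0.000272), and the fitted level fell by 49.6%. At P21 the levels were 1277, 1261, 1177 and 1065 CPM across the WT libraries, against 831, 880.0, 795 and 828 CPM across the KO libraries, which again did not overlap (log2 fold change -0.51, SE 0.0778, adjusted *P*-value 0.00257).

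The Rieske iron-sulphur protein *Uqcrfs1*, which takes electrons from ubiquinol, was at 657, 778, 841 and 768 CPM across the WT libraries, against 413, 382, 404 and 475 CPM across the KO libraries at P35. These groups did not overlap either (log2 fold change -0.84, SE 0.103, adjusted *P*-value 0.000334). *Cyc1*, the cytochrome c1 that hands the electron to cytochrome c, was at 609, 750.4, 828 and 710.3 CPM across the WT libraries, against 418, 399, 425 and 503 CPM across the KO libraries. WT replicate 1 was the lowest WT library for both genes and still lay above all KO libraries (log2 fold change -0.71, SE 0.114, adjusted *P*-value 0.00123 for *Cyc1*). Core protein 2, *Uqcrc2*, had log2 fold change -0.74, SE 0.104, adjusted *P*-value 0.000659. The other 5 genes of complex III are small accessory subunits, of which *Uqcrb*, *Uqcrq* and *Uqcr10* fell by 0.41, 0.39 and 0.31 on the log2 scale, while *Uqcr11* and *Uqcrh*, at -0.24 and -0.19, did not pass the test.

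In complex V, values are given by part of the enzyme, and a difference between the parts was not tested. All 5 subunits of the catalytic F1 head fell at P35 with a median of -0.76, and so did all 4 of the peripheral stalk (*Atp5f1*, *Atp5o*, *Atp5j* and *Atp5h*), between -0.50 and -0.40. None of the 4 small membrane subunits (*Atp5mpl*, *Atp5j2*, *Atp5l* and *Atp5k*) passed the test, with values from -0.26 to -0.01. Under library totals 5.92% of all genes were called lower and 54.3% higher. On that scale 3 of the 5 head subunits (*Atp5a1*, *Atp5b* and *Atp5c1*) were called lower and *Atp5e* turned to 0.13. None of the stalk was called (-0.11 to -0.01), and 2 of the 4 small membrane subunits were called higher (0.14 to 0.39).

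Within the head, *Atp5a1* encodes the alpha subunit and was at 3151, 3412, 3856 and 3487 CPM across the WT libraries, against 1963, 1866, 1781 and 2108 CPM across the KO libraries at P35. Even the lowest WT library lay far above all KO libraries (log2 fold change -0.83, SE 0.108, adjusted *P*-value 0.000457). It had also the lowest log2 fold change of the set at P21, when the levels were 4312, 3874, 3543 and 3542 CPM across the WT libraries, against 2693, 2759, 2567 and 2580.5 CPM across the KO libraries (log2 fold change -0.51, SE 0.0842, adjusted *P*-value 0.00351). The beta subunit *Atp5b*, which carries the catalytic sites, was the most abundant member per kilobase of exon at P35 and had log2 fold change -0.82, SE 0.113, adjusted *P*-value 0.000582 then.

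The gamma subunit *Atp5c1* is the rotating shaft of the enzyme. Its levels at P35 were 793, 899, 965 and 851 CPM across the WT libraries, against 498, 506, 477 and 560.2 CPM across the KO libraries. The KO libraries lay close together, below all WT libraries (log2 fold change -0.76, SE 0.0922, adjusted *P*-value 0.000327). At P21 the change was smaller but past the test (log2 fold change -0.32, SE 0.0703, adjusted *P*-value 0.0126). The epsilon subunit *Atp5e* changed least in the head, from 387 ± 18.9 CPM to 315 ± 25.8 CPM (SD, *n*=4), with log2 fold change -0.27, SE 0.0814, adjusted *P*-value 0.0242.

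The c-ring, through which protons drive the rotation, is made of 1 protein encoded by 3 genes that differ in their import sequences. *Atp5g1* (ENSMUSG00000006057, chromosome 11, 96068852 to 96075670, minus strand) was at 591, 736, 813 and 717 CPM across the WT libraries, against 367, 341, 342 and 418 CPM across the KO libraries at P35. No KO library came near the WT range (log2 fold change -0.94, SE 0.114, adjusted *P*-value 0.000327), and the fall was the second in size among the 42. *Atp5g3* fell less (log2 fold change -0.54, SE 0.127, adjusted *P*-value 0.0079), and *Atp5g2* had log2 fold change -0.05, SE 0.0762, adjusted *P*-value 0.647, which did not pass the test. Under library totals, 1 of the 3 genes was called lower and 1 higher at P35 (-0.54 to 0.35), when 5.92% and 54.3% of all genes were. The same counts held at P21 on that scale (-0.25 to 0.31).

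In complex IV, 7 of 16 genes fell and 1 rose at P35, with a median of -0.32, and 2 of the 3 heart and muscle isoforms were among the fallen. Scaled by library totals, none of the muscle isoforms was called (-0.29 to 0.12). Of the 10 ubiquitous subunits 3 were called higher and 1 lower, beside 54.3% and 5.92% of all genes. *Cox7a1* (chromosome 7, 30184144 to 30186078, plus strand), the muscle isoform of subunit 7a, was at 269, 328, 371 and 325 CPM across the WT libraries, against 188, 147, 209 and 248 CPM across the KO libraries. The KO libraries were lower throughout but spread widely, and KO replicate 4 came near WT replicate 1 (log2 fold change -0.68, SE 0.156, adjusted *P*-value 0.00698). *Cox6a2* (chromosome 7, 128205435 to 128206387, minus strand), the muscle isoform of subunit 6a, was at 595, 495, 571 and 422 CPM across the WT libraries, against 383, 373, 269.6 and 312 CPM across the KO libraries. Its groups were separate as well (log2 fold change -0.61, SE 0.146, adjusted *P*-value 0.00851).

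The third muscle isoform, *Cox8b*, was at 254, 266, 293 and 265 CPM across the WT libraries, against 232, 197, 193 and 253 CPM across the KO libraries. WT replicate 1 and KO replicate 4 almost touched, and the change did not pass the test (log2 fold change -0.27, SE 0.101, adjusted *P*-value 0.0542). Among the ubiquitous subunits *Cox5a* had the lowest value (log2 fold change -0.67, SE 0.114, adjusted *P*-value 0.00157), followed by *Cox7b* at -0.52, *Cox4i1* at -0.44, *Cox7a2* at -0.41 and *Cox6b1* at -0.33, all past the test. *Cox5b*, called at P21, had an adjusted *P*-value of 0.0505 at P35, and *Cox6c*, *Cox7c*, *Cox4i2*, *Cox6b2* and *Cox7a2l* were not called.

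Only *Cox6a1* was called as higher in KO at P35. This ubiquitous isoform of subunit 6a (chromosome 5, 115345642 to 115348981, minus strand) was at 15.1, 21.1, 21.3 and 18.03 CPM across the WT libraries, against 21.4, 24.1, 23.4 and 24.7 CPM across the KO libraries. KO replicate 1 and WT replicate 3 almost touched, though the groups did not overlap (log2 fold change 0.33, SE 0.112, adjusted *P*-value 0.0379). The call was lost in 5 of the 8 refits that left out 1 library (WT replicate 1 or 4, or KO replicate 2, 3 or 4). Without WT replicate 1 the value was 0.24. Its counterpart in subunit 8, *Cox8a*, was at 28.9, 36.2, 40.3 and 33.7 CPM across the WT libraries, against 38.2, 42.02, 41.9 and 42.6 CPM across the KO libraries, groups that overlapped (log2 fold change 0.27, SE 0.0989, adjusted *P*-value 0.0529).

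**Figure D2:**
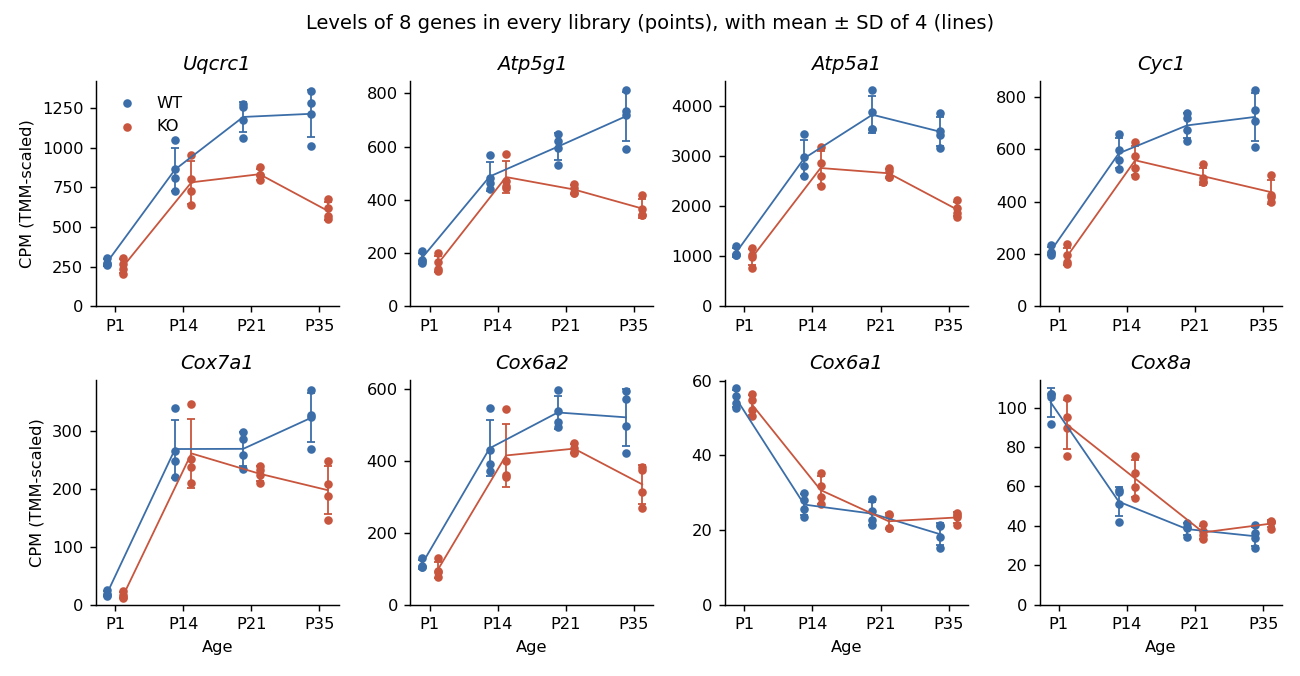
TMM-scaled CPM of 8 genes (vertical axis, from 0) in each of the 32 libraries, by age (horizontal axis, ages spaced evenly), with WT in blue and KO in red. Points are libraries, lines join the means and bars give the SD of 4. *Uqcrc1*, *Atp5g1*, *Atp5a1* and *Cyc1* part between P14 and P35, *Cox7a1* and *Cox6a2* climb from P1 to P14, and *Cox6a1* and *Cox8a*, the ubiquitous isoforms, drop from P1 to P21 in both genotypes.

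Counted by libraries that do not overlap, 20 of the 42 genes had all 4 KO libraries below all 4 WT libraries at P21, against 11.0% of all genes tested, and 22 at P35, against 20.4%. *Cox6a1* was the single gene with all KO libraries above all WT libraries at P35 (19.2% of all genes), and 19 genes overlapped. At P1 and P14 all 42 overlapped, and 8.61% and 4.84% of all genes did not.

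Most of the set rose after birth in both genotypes. From P1 to P14, 38 of the 42 genes rose and 3 fell in WT (adjusted *P*-value under 0.05 and more than 1.5-fold, in 1 edgeR fit of all 32 libraries), when 25.4% of all genes rose and 31.8% fell by the same rule. The median log2 change was 1.41, beside -0.09 over all genes. In KO, 38 rose and 2 fell, with a median of 1.46, when 25.7% of all genes rose and 31.6% fell. Scaled by library totals, which moved the median of all genes to -0.87 in WT, 24 rose (9.57% of all genes) and 3 fell (58.5%) in WT, and *Atp5g2* turned sign. The P1 libraries carried the lower myofibre sums and the higher keratinocyte sums given above (7 of 7 myofibre markers rose and 8 of 8 keratinocyte markers fell from P1 to P14 in WT). Under library totals, brown adipocyte (3 of 3), adipocyte (5 of 6), fibroblast (5 of 5), macrophage (6 of 6) and erythroid (5 of 5) markers also fell. Endothelial markers fell in 1 of 5, and 68.7% of all genes fell by adjusted *P*-value alone on that scale. The part of these cells in the rise was not tested.

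The muscle isoforms *Cox7a1* and *Cox8b* rose furthest. *Cox7a1* went from 19.4, 24.9, 17.5 and 15.6 CPM at P1 to 249, 221, 266 and 340.5 CPM at P14 in WT, a log2 change of 3.80 (adjusted *P*-value 3.21e-15, SE 0.205) with no overlap. *Cox8b* went from 39.5, 48.5, 36.3 and 34.4 CPM to 193, 167, 210.0 and 297 CPM, a log2 change of 2.45, and the ubiquitous *Cox5a* rose by 2.18. The 3 that fell were *Cox6b2*, an isoform known from testis, by 1.70, and the ubiquitous isoforms *Cox6a1* by 1.04 and *Cox8a* by 0.97 on the log2 scale. These 3 kept their direction under library totals, at -2.47, -1.81 and -1.74. In KO the same step gave 3.99 for *Cox7a1*, 2.64 for *Cox8b*, -0.80 for *Cox6a1* and -0.51 for *Cox8a*.

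After P14 the steps were small. No member changed by more than 1.5-fold in WT from P14 to P21 or from P21 to P35, when 10.3% and 7.01% of all genes did. By the adjusted *P*-value alone, 4 rose and 4 fell in the first step (24.2% of all genes were called), and 10 rose and 1 fell in the second (17.7%). *Uqcrc1* had the highest value from P14 to P21, 0.47, and *Cox8a* fell by 0.45. From P21 to P35, the highest values were 0.55 for *Atp5j2*, 0.54 for *Atp5mpl* and 0.54 for *Atp5j*, and *Cox6a1* fell by 0.37. In KO, 0 rose and 11 fell from P14 to P21 (27.6%), of which only *Cox8a*, at -0.80, passed the fold limit (13.5% of all genes did). From P21 to P35, 7 rose and 6 fell (26.6%), and none passed the fold limit (10.2%).

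Whether the KO effect itself differed between ages was tested as an interaction. Between neighbouring ages none of the 42 was called by edgeR. From P1 to P14, 1 gene (*Cox8a*) had an unadjusted *P*-value under 0.05, from P14 to P21, 8 had, and from P21 to P35, 9 had. The shares called over all genes were 0.0269%, 1.41% and 2.18%. DESeq2 called 0, 0 and 1 (0.113%, 2.64% and 4.23% of all genes). Between P14 and P35, a comparison added after the data had been seen, 16 of the 42 were called, all with a lower value at P35, beside 9.56% of all genes in that direction. The median difference was -0.43, beside 0.02 over all genes.

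The smallest adjusted *P*-values in this comparison belonged to *Atp5g1* (-0.95, SE 0.168, adjusted *P*-value 0.00027), *Atp5c1* (-0.72, SE 0.139, 0.000647) and *Uqcrc1* (-0.87, SE 0.179, 0.0012). The called genes were 4 in complex III, 3 in complex IV (*Cox5a*, *Cox4i1* and *Cox7a2*) and 9 in complex V. Their number moved with the 2 high libraries of P14, to 26 without WT replicate 4 and to 10 without KO replicate 4 of that age. Scaling by library totals left 8, all with a lower value at P35 (2.54% of all genes).

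Ratios of isoforms within a library do not depend on scaling between libraries. They were taken as the log2 ratio of the counts of a pair with 0.5 added to each, in 5 pairs at 4 ages. In WT, *Cox6a2* over *Cox6a1* rose from 1.00 at P1 to 4.01 at P14, 4.46 at P21 and 4.79 at P35. *Cox7a1* over *Cox7a2* went from -2.46 to 0.87 and *Cox8b* over *Cox8a* from -1.38 to 2.96 over the same span. In these pairs the muscle isoform came to lead in counts, whereas *Cox6a2* already led *Cox6a1* at P1. On a scale of CPM per kilobase of exon, the level in WT went from 163 to 766 for *Cox6a2* and from 78.7 to 26.9 for *Cox6a1* between P1 and P35. The levels went from 36.2 to 604 for *Cox7a1* and from 112 to 187 for *Cox7a2*, and from 110.2 to 748 for *Cox8b* and from 166 to 56.2 for *Cox8a*.

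At P35, *Cox6a2* over *Cox6a1* was 5.3, 4.55, 4.74 and 4.55 in the WT libraries, against 4.16, 3.96, 3.52 and 3.66 in the KO libraries. All 4 KO libraries lay below all WT libraries, with means of 3.82 ± 0.288 against 4.79 ± 0.353 (SD, *n*=4). *Cox8b* over *Cox8a* was 3.13, 2.88, 2.86 and 2.97 in the WT libraries, against 2.6, 2.23, 2.21 and 2.57 in the KO libraries. Again no KO library reached the WT range, and the means were 2.40 and 2.96. *Atp5g1* over *Atp5g3* was -0.48, -0.54, -0.51 and -0.54 in the WT libraries, against -0.9, -0.8, -1.0 and -0.93 in the KO libraries. Its means were -0.91 and -0.52, and at P21 the same pair already had all KO libraries below all WT libraries, with means of -0.71 and -0.62.

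These 4 differences each had the smallest *P*-value that 70 assignments of 8 libraries allow, 0.0286 (exact permutation test, two-sided), and none of the 20 tests passed after adjustment (adjusted *P*-value 0.143). At least 12 of 20 tests at that minimum would have been needed for one to pass. *Cox7a1* over *Cox7a2* at P35 differed by -0.29 (exact permutation *P*-value 0.0571, adjusted 0.229), with 3 of 4 KO libraries below all WT libraries. *Cox4i2* over *Cox4i1*, a pair in which the lung isoform was rare throughout, differed by 0.15 (exact permutation *P*-value 0.286). At P1 and P14 the 5 ratios differed by at most 0.27 in size, and for no pair did the 4 libraries of one genotype stand clear of the other. Within the same-numbered pairs of P14, *Cox6a2* over *Cox6a1* was lower in KO in 4 of 4 (differences of -0.47 to -0.13), *Cox7a1* over *Cox7a2* and *Cox8b* over *Cox8a* in 3 of 4, *Cox4i2* over *Cox4i1* in 2 and *Atp5g1* over *Atp5g3* in 1. Exchanges within 4 pairs cannot give an exact permutation *P*-value under 0.125.

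**Figure D3:**
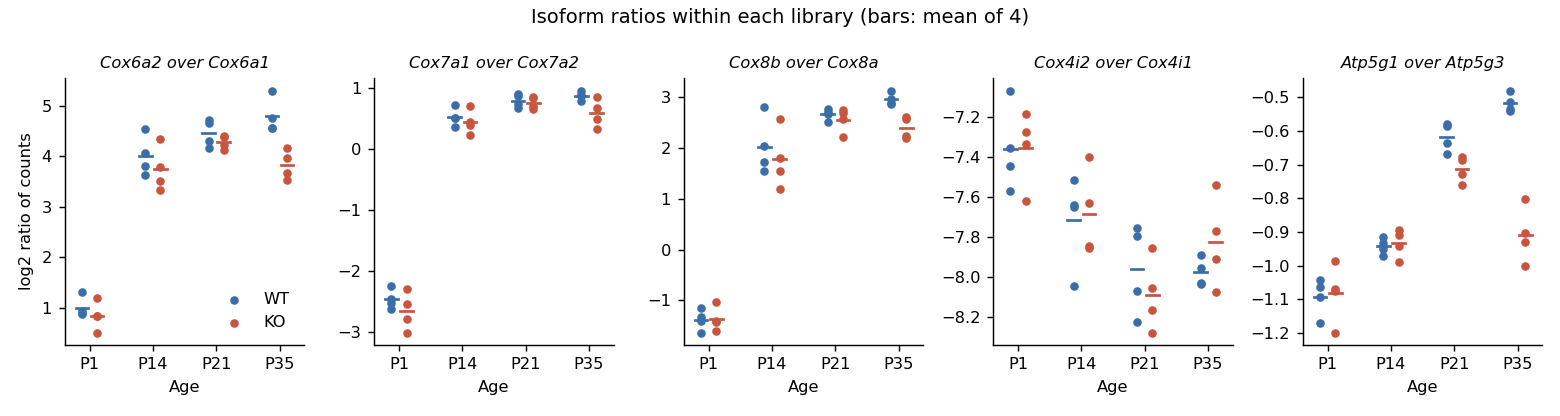
Log2 ratio of counts (vertical axis, a scale of its own in each panel) for 5 pairs of isoform genes in each of the 32 libraries, by age (horizontal axis, ages spaced evenly), with WT in blue, KO in red and bars at the mean of 4. The muscle isoforms gain on the ubiquitous ones from P1 to P14 in both genotypes, and at P35 the KO libraries lie below the WT libraries for *Cox6a2* over *Cox6a1*, *Cox8b* over *Cox8a* and *Atp5g1* over *Atp5g3*.

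The sequence before the start of each gene is shown for the muscle and ubiquitous isoforms of complex IV, in which the muscle gene gained on the ubiquitous one with age. The 250 bases upstream of the start (RefSeq, GRCm38.p6, 5' to 3' on the strand of the gene) were at hand for 30 of the 42 genes, and those of *Cox6a2* were not among them. Capitals mark a match to 1 of 5 short motifs searched on both strands. Of the ubiquitous isoforms, *Cox6a1* (chr5:115348959-115349208, minus strand), *Cox7a2* (chr9:79759854-79760103, minus strand) and *Cox8a* (chr19:7217617-7217866, minus strand) read as follows.
Cox6a1: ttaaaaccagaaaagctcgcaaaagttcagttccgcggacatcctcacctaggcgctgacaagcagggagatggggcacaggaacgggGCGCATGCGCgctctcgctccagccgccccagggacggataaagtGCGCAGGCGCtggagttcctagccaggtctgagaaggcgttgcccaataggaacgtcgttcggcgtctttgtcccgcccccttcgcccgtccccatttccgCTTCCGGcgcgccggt
Cox7a2: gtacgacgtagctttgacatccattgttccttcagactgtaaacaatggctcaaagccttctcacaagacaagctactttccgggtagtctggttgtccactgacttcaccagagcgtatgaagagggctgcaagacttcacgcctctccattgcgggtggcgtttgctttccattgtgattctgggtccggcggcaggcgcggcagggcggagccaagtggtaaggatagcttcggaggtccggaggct
Cox8a: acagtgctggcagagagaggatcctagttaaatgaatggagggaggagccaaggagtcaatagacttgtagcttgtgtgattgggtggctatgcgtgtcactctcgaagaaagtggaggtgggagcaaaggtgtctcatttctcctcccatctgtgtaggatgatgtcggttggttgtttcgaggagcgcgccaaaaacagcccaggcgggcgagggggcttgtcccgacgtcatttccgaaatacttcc
Of the muscle isoforms, *Cox7a1* (chr7:30183921-30184170, plus strand) and *Cox8b* (chr7:140900447-140900696, minus strand) read as follows.
Cox7a1: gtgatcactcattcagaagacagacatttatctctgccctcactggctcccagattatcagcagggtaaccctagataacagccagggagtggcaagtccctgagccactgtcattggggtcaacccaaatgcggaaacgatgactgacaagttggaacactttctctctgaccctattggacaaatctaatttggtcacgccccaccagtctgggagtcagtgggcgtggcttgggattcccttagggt
Cox8b: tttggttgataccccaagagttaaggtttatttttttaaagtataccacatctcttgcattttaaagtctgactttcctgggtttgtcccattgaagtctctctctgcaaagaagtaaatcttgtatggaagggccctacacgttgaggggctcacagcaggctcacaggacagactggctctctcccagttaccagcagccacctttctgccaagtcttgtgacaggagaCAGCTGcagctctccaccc

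*Cox6a1* held the NRF-1 letters (GCGCA and GCGC with 1 base between) at 162 and 117 bases before the start and the GABP letters CCGGAAG, on the other strand, at 16 bases before it. The windows of *Cox6a1*, *Cox7a1* and *Cox7a2* reach 23, 27 and 25 bases into the gene as GENCODE places it, upstream of the RefSeq start, and the GABP match of *Cox6a1* lies in that stretch. *Cox8b* held the E-box CAGCTG at 19 bases before the start, and *Cox7a1*, *Cox7a2* and *Cox8a* held none of the 5. Over the set, NRF-1 letters were in 5 of 30 promoters (16.7%), against 4.23% of all 27025, and GABP letters in 8 (26.7%), against 7.83%. The E-box was in 2 (6.67%, against 14.7%), the ERR letters TCAAGGTCA in 1 (*Atp5g3*, 3.33%, against 0.422%) and the MEF2 letters (CTA and TAG with 4 bases between) in 1 (*Cox5b*, 3.33%, against 3.70%). A match describes letters in this window and not a site in use.

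The size of the KO effect varied with the length of the coding sequence, a description made after the values had been seen. All 9 members with more than 600 coding bases (*Uqcrc1*, *Uqcrc2*, *Cyc1*, *Uqcrfs1*, *Atp5a1*, *Atp5b*, *Atp5c1*, *Atp5f1* and *Atp5o*) fell at P35, with a median of -0.76. Of the 33 shorter ones, 17 fell and 1 rose, with a median of -0.31. Over all protein-coding genes tested the medians were 0.01 above 600 bases and 0.17 at or below it. Above 600 bases, 2657 of 12077 were called lower and 2443 higher, and at or below it 252 of 1837 were lower and 622 higher. Across the 42 genes, Spearman's rho of coding length and log2 fold change was -0.65 at P35, -0.66 at P21, -0.54 at P14 and -0.03 at P1, and over all protein-coding genes at P35 it was -0.18 (*n*=13914). Longer members were also more abundant (rho 0.60 with mean CPM), and rho of mean CPM with the log2 fold change at P35 was -0.69. Genes are not independent replicates and share libraries and depth, so these values carry no test, and length, level and role in the complex cannot be told apart here. *Atp5g1*, with 408 coding bases and a value of -0.94, and *Cox7a1*, with 240 and -0.68, lay far from the trend.

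**Figure D4:**
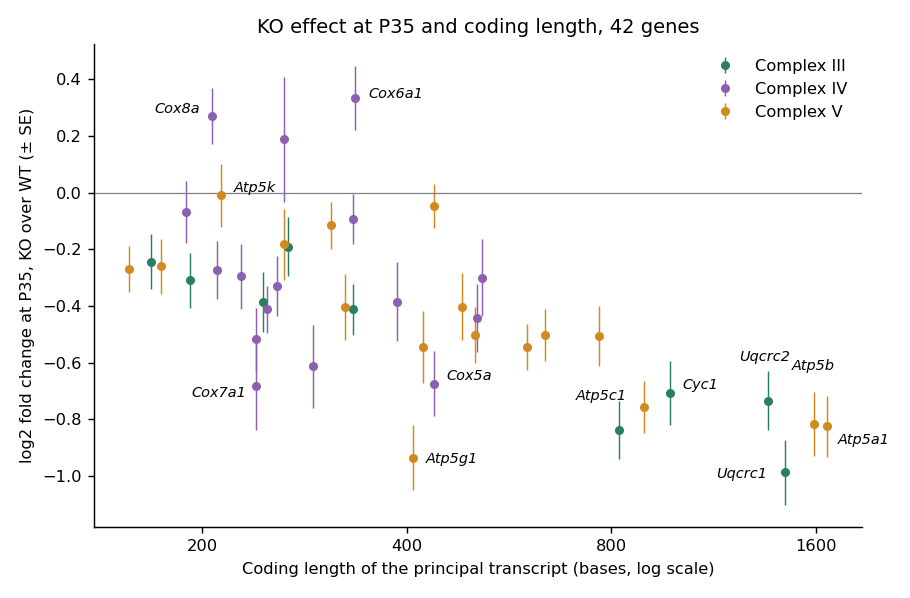
Log2 fold change of KO over WT at P35 with its SE (vertical axis) against the coding length of the principal transcript in bases (horizontal axis, log scale), for the 42 genes coloured by complex, with TMM scaling. All 9 genes above 600 bases lie at -0.50 or lower, and the shorter genes spread from -0.94 to 0.33.

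The counts of the 42 genes summed to 1.23% of a library in WT at P1 and 2.0% at P35 (means of 4), and 1.18% and 1.75% in KO. At P35 the WT libraries ranged from 1.73% to 2.26% and the KO libraries from 1.69% to 1.89%, so the shares overlapped. The 6 mitochondrially encoded subunits of the same complexes (*mt-Cytb*, *mt-Co1* to *mt-Co3*, *mt-Atp6* and *mt-Atp8*) held 9.20% of a WT library and 6.59% of a KO library at P35. Their ratio to the nuclear counts was 4.59 in WT (4.07 to 4.99) and 3.76 in KO (3.60 to 3.88) at P35, ranges that did not overlap, and 3.19 (3.05 to 3.51) and 2.79 (2.63 to 2.97) at P21. As shares of poly(A) libraries these values carry no test. Alone, *mt-Co1* held 4.88% of a library in WT and 3.08% in KO at P35. The genes *Gm28437* (1.92% in WT and 1.11% in KO) and *Gm10925* (1.53% and 1.02%) also lost share at P35. How the counting divided reads between mitochondrially encoded genes and copies of them elsewhere in the genome was not tested. Leaving the mitochondrially encoded genes out before TMM changed no count of members called by more than 1.5 times.

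**Figure D5:**
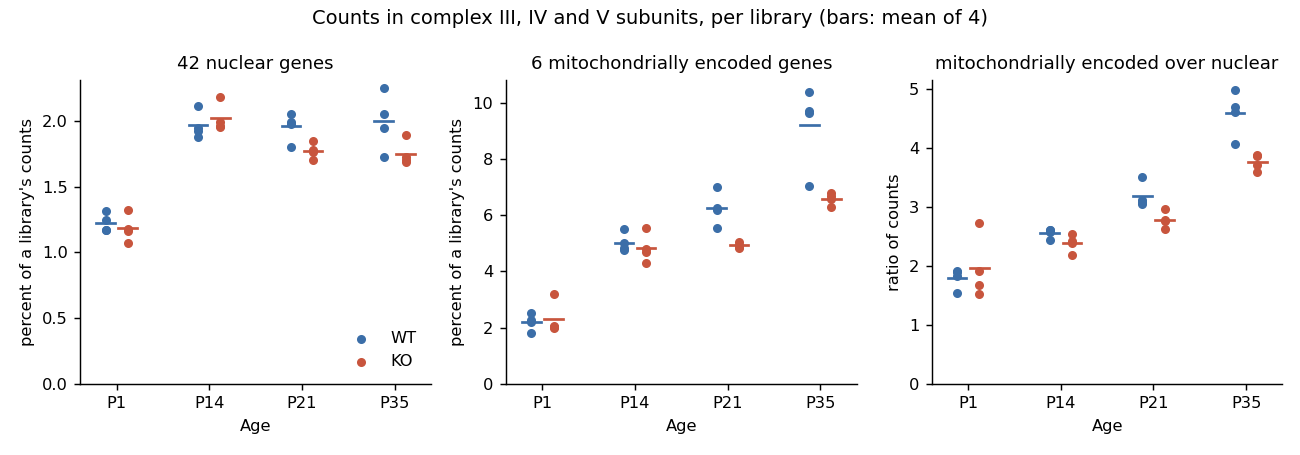
Share of each library's counts (percent, vertical axes from 0) in the 42 nuclear genes (left) and in the 6 mitochondrially encoded genes of complexes III, IV and V (middle), and the ratio of the second to the first (right), by age (horizontal axis, ages spaced evenly). Points are the 32 libraries, WT in blue and KO in red, and bars are means of 4. At P35 the nuclear shares overlap (1.73% to 2.26% and 1.69% to 1.89%), while the ratios do not (4.07 to 4.99 and 3.60 to 3.88).

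Gene by gene, all 6 mitochondrially encoded subunits were lower in KO at P21, when 9.57% of all genes were. At P35 3 were lower (*mt-Atp8* by 1.28, *mt-Co1* by 1.06 and *mt-Cytb* by 1.02 on the log2 scale), and the same 3 were called lower then under library totals. On that scale *mt-Co2*, *mt-Co3* and *mt-Atp6* had log2 fold changes of 0.02, 0.02 and -0.17, with SEs of 0.250, 0.215 and 0.206. The called *mt-Co1*, *mt-Atp8* and *mt-Cytb* were at -0.66, -0.87 and -0.62, with SEs of 0.124 to 0.163. For the lists that follow, the shares over all genes at P35 are the 20.1% lower and 21.4% higher given above, and 5.92% and 54.3% under library totals. Complex II, which has only nuclear subunits, had 4 of 4 genes lower at P35, led by *Sdha* at -0.81 (2 of 4 under library totals). Of 36 nuclear genes of complex I, 24 were lower, led by *Ndufs1* at -0.88, against 3 lower and 7 higher under library totals. Assembly factors of the 3 complexes gave 19 lower and 2 higher of 37 (11 and 14 under library totals). In complex III these were 4 of 6 (*Uqcc1* -0.85, *Ttc19* -0.80), and in complex IV 11 of 25 (*Taco1*, which activates translation of COX1, at -1.04, *Coa7* at -0.99, *Cox10* at -0.96), with the copper chaperone *Cox17* higher at 0.39. In complex V 4 of 6 were lower (*Atpaf1*, which assembles the F1 head, at -0.97), and *Atpif1*, the inhibitor of ATP hydrolysis by the synthase, was higher at 0.97 (14.6 ± 0.798 CPM (WT) against 28.1 ± 9.22 CPM (KO), mean ± SD of 4). Cytochrome c itself (*Cycs*) fell by 0.69 on the log2 scale.

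Among 11 regulators of these genes, 4 were lower at P35 and 1 higher (20.1% and 21.4% of all genes), against 1 and 4 under library totals (5.92% and 54.3%). *Ppargc1a*, a coactivator of mitochondrial biogenesis, was at 57.6 ± 6.52 CPM (WT) against 25.5 ± 2.09 CPM (KO), mean ± SD of 4, the lowest of the 11 at -1.15 on the log2 scale (adjusted *P*-value 8.51e-05, SE 0.0977). Its nuclear receptor partner *Esrra* was at -0.55, the mitochondrial DNA factor *Tfam* at -0.35 and the GABP subunit *Gabpa* at -0.35 (0.05 and 0.06 for the last pair under library totals), and the muscle factor *Mef2c* rose by 0.61. *Nrf1* had 0.15 and did not pass the test, but it was called higher under library totals (0.55, adjusted *P*-value 0.000297 in edgeR).

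Other cells and fibre types moved with genotype at P35. Summed markers of myofibres were 115976 to 163763 CPM in WT and 71370 to 100357 CPM in KO (3 of 7 lower, none higher). Those of slow fibres were 36.2 to 171 CPM in WT and 768 to 1830.5 CPM in KO (5 of 6 higher), with *Myh7* at 2.17 to 29.3 and 288 to 730.0 CPM. Of the fast oxidative markers, *Myh2* rose under library totals (log2 fold change 1.95, adjusted *P*-value 0.0138 in edgeR), and *Myh1*, at -0.40, was not called. Adipocyte markers rose (6 of 6, 5.49 to 26.8 CPM in WT and 43.0 to 177 CPM in KO), macrophage markers were higher in 5 of 6 and lower in 1, and endothelial markers were lower in 4 of 5 (310.5 to 578 and 272 to 339 CPM). Under library totals 0 of 7 myofibre, 1 of 5 endothelial and 0 of 6 macrophage markers were lower. Fibroblast markers were higher in 1 of 5 (4 of 5 under library totals), summing to 3115 to 3927 CPM in WT and 3189.8 to 4959 CPM in KO. Keratinocyte markers summed to 10.5 to 11.8 CPM in WT and 35.7 to 45.8 CPM in KO. At P21 the slow fibre sums were 273 to 953 and 610.3 to 966 CPM, and the myofibre sums 137754 to 179323 and 122268 to 139447 CPM. Of all genes tested at P21, 11.4% were called higher and 9.57% lower (31.2% and 3.85% under library totals). Macrophage markers were higher in 5 of 6 at P21 (76.8 to 88.8 and 86.8 to 107 CPM), fibroblast markers in 1 of 5 (4 of 5 under library totals), and endothelial markers were lower in 3 of 5 (0 under library totals). Their part in the results for the 42 genes was not tested.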

How the data were processed

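The 32 libraries, each from the TA of a single mouse, were grouped by the genotype, age and replicate number in their labels. The authors deposited expected counts for each gene in each library, not scaled between libraries, which the submitters' processing notes tie to STAR 2.6.1, RSEM 1.2.22 and the genome build GRCm38, whereas HTSeq is the counter given in the methods. The annotation release and the strand setting of the counting are not given in the sources used here. Of the values 4.26% were not whole, and all were rounded. The table held 0 columns that were not used.

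Genes were filtered with filterByExpr, scaled by TMM and tested with the quasi-likelihood test of edgeR 4.0.16 (R 4.3.3) in two-sided form, and *P*-values were adjusted by Benjamini-Hochberg over every gene tested. The 8 libraries of an age gave the comparison of KO with WT. Age steps and interactions came from 1 fit of all 32 libraries. CPM values share 1 TMM scale over the 32 libraries. Isoform ratios were tested by exact permutation in python 3.11.15. The scripts were tested on simulated data. Alternatives were DESeq2 1.42.0, RLE size factors, library totals, no filter on low counts, removal of mitochondrially encoded genes, all libraries in 1 fit or only those compared, the replicate number as a block, other added counts for ratios, and leaving out each library. The interaction of P14 with P35, levels per length by principal transcript and the split by coding length were added after the data were seen. Promoters came from RefSeq (GRCm38.p6), and gene coordinates and lengths from GENCODE M21 (GRCm38), which gave 54723 genes a symbol.

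The members and gene lists were chosen with earlier results of these data known. Named genes are the isoform pairs, the 3 lowest and 3 highest called members of each age or WT step, the smallest adjusted *P*-values of an interaction, the gamma subunit of ATP synthase, and up to 3 genes with the smallest adjusted *P*-value of each other list. Genes named beyond this rule, to complete a complex or a role, were chosen after their values were seen. Same-numbered WT and KO mice deviated together at P14 (mean correlation of deviations 0.33, every pair above 0.1). The replicate numbers belong to different animals. No pair of replicates agreed within sampling noise.

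Libraries held 49321035 to 85631408 counts, and reads carried no molecular identifiers, so the error of counting is the least error of a level. Exons of 12 of the 42 genes overlap a gene on the opposite strand (among the DEGs *Atp5a1*, *Uqcrc2*, *Cox5a* and *Cox6a2*), and reads shared with pseudogenes depend on how RSEM divided them.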

Additional observations from a re-analysis of the deposited data

Results flagged for a closer look

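In groups of 4 libraries, 1 library stood apart from the other 3 by Dixon's test at the 95% level in 9 of 152 groups examined (19 genes, 8 groups each), which is near the 1 in 20 that chance gives. At P1 these were WT replicate 2 for *Atp5a1* (1194 CPM, the others 1018 to 1036) and for *Cox6a2* (130.2 CPM, the others 104 to 107), and WT replicate 3 for *Cox8a* (91.5 CPM, the others 105 to 107). At P21, KO replicate 2 stood apart for *Atp5f1* (751 CPM, the others 646 to 657), for *Uqcrfs1* (553 CPM, the others 486 to 496) and, on the low side, for *Cox8b* (189.5 CPM, the others 224 to 227). At P35, WT replicate 1 was low for *Cox4i2* (3.02 CPM, the others 4.04 to 4.13) and for *Uqcr10* (216 CPM, the others 254 to 256), and KO replicate 1 was low for *Cox8a* (38.2 CPM, the others 41.9 to 42.6).

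The KO effect differed between P14 and P35 in 16 of the 42 genes (interaction in edgeR, adjusted *P*-value under 0.05), each with a lower value at P35. Of all genes, 9.56% were called in that direction. The comparison was added after the data were seen, and leaving out 1 library gave 10 to 26 members. In complex III the log2 differences were -0.87 for *Uqcrc1*, -0.78 for *Uqcrfs1*, -0.66 for *Cyc1* and -0.64 for *Uqcrc2*. In complex IV they were -0.60 for *Cox5a*, -0.51 for *Cox4i1* and -0.47 for *Cox7a2*. In complex V they were -0.95 for *Atp5g1*, -0.77 for *Atp5b*, -0.75 for *Atp5a1*, -0.72 for *Atp5c1*, -0.55 for *Atp5g3*, -0.54 for *Atp5o*, -0.53 for *Atp5s*, -0.53 for *Atp5d* and -0.45 for *Atp5f1*. Under library totals 8 of the 42 were called, all lower (2.54% of all genes), and the 16 all kept their sign.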

How the results depend on the processing

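Counts of members called, DEGs and medians kept within 1.5 times or the spread between libraries in 349 of 368 refits. With library totals, 9 members were called at P21 (8 lower and 1 higher, median -0.0155), when 35.1% of all genes were called. At P35 17 were called (9 lower and 8 higher, 3 DEGs, median -0.00515), when 60.3% of all genes were, and *Atp5e* and *Uqcr10* turned to 0.129 and 0.089. From P1 to P14 in WT 27 were called (9.57% of all genes higher and 58.5% lower). In WT from P14 to P21 1 was called (2.41% and 10.6%), and in KO from P21 to P35 2 were (10.1% and 2.16%). The interaction of P14 with P35 gave 8, all lower (2.54% of all genes). DESeq2 called 26 at P21 (24.9% of all genes in either direction) and 1 in the interaction of P21 with P35 (4.23%). Leaving out 1 library gave 11 to 18 members at P21, 21 to 31 at P35 and 9 to 13 DEGs at P35, 0 to 1 in WT from P14 to P21, 1 to 2 in KO from P14 to P21, 0 to 3 in WT from P21 to P35 (3 without WT P35 replicate 1), 0 to 1 in KO from P21 to P35, and 10 to 26 in the interaction of P14 with P35. For these the cause was not tested. Of 315 refits of 21 single-gene results, 267 kept direction and call, 46 lost the call and 2 changed direction.

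With the replicate block, 1 member was called at P14 (*Cox8a*), and the block changed no other count by more than 1.5 times. At P1, P21 and P35 same-numbered mice share only a number (mean correlation of deviations -0.14, 0.07 and 0.05). There the block gave 0, 16 and 26 calls, beside 0.0166%, 23.8% and 36.7% of all genes in either direction. For the isoform ratios, exchanging genotypes within same-numbered pairs (16 exchanges, smallest *P*-value 0.125, exact permutation) or leaving out 1 library could not pass, and no such test was run. All 4 ratio differences with complete separation kept their sign without any 1 library, and adding 5 counts or leaving counts unrounded also gave 0 of 20 tests past adjustment. The lowest levels, and so the least precise by counting, were those of *Cox6b2* (0.238 to 3.51 CPM) and *Cox4i2* (1.65 to 4.95 CPM).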
